A study of Mus musculus with 31 samples.

Results

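The loss of beta-catenin was examined in fetal testes by setting 4 XY Ctnnb1KO arrays against 4 XY Ctr arrays, 8 of the 31 arrays of the series, chosen by their sample titles. Each array carried labelled RNA of 1 pair of gonads taken at embryonic day 14.5 and freed from the mesonephros, and all values are MAS5 signals, a linear intensity per probe set. XY Ctnnb1KO gonads carried the Cre transgene Sf1-cre+/Tg with Ctnnb1f/f and Sox9+/f. XY Ctr gonads carried the same transgene with Ctnnb1+/f and Sox9+/f. Controls thus had 1 floxed allele of each gene, so the contrast is between 2 and 1 floxed alleles of Ctnnb1, and both groups had 1 floxed allele of Sox9. The Sf1 promoter that drives Cre acts in somatic gonad cells and not in germ or blood cells, while a pair of gonads holds all of these. For comparison the same loss was read in XX Ctnnb1KO against XX Ctr (4 arrays each), in XY Ctnnb1/Sox9 DKO (3) against XY Sox9KO (4), and in XX Ctnnb1/Sox9 DKO against XX Sox9KO (4 each). Sox9KO gonads had Ctnnb1+/f with Sox9f/f, and DKO gonads had Ctnnb1f/f with Sox9f/f, in both cases with the same Cre. None of these gonads entered the XY Ctnnb1KO and XY Ctr groups.

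Beta-catenin links cadherins to the cytoskeleton and is the effector of canonical WNT signals: without a WNT ligand it is degraded, and with one it enters the nucleus and works with TCF and LEF proteins at target genes. In the fetal gonad the WNT4 and R-spondin 1 branch of this pathway belongs to ovary development. In the testis SOX9 drives Sertoli cell differentiation, and Sertoli cells signal to Leydig cells, which make androgens.

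The labelled state of the tissue was checked first. Both groups had the Y-linked transcript Eif2s3y, at 3115 ± 421 in XY Ctnnb1KO and 3310 ± 237 in XY Ctr (SD, n = 4 each), and both had the Sertoli cell signal Dhh, a hedgehog ligand, at 2043 ± 180 in XY Ctnnb1KO and 2248 ± 164 in XY Ctr. Ctnnb1 signal was 13247 ± 497 in XY Ctnnb1KO and 12798 ± 470 in XY Ctr, a log2 difference of 0.05 ± 0.06 (SE), and its other probe sets gave -0.04 and 0.01. The position of these 3 probe sets relative to the deletion was not given in the sources used here. Their levels therefore do not check the knockout. Jup, encoding plakoglobin, the closest relative of beta-catenin, gave -0.09 ± 0.12. Median signal per array was 154.7 to 163.8 in XY Ctnnb1KO and 149.6 to 167.8 in XY Ctr, and no array stood apart in its correlation with the other 7, whose lowest value was 0.9727. Of the arrays used for comparison, replicate 4 of XX Ctnnb1KO had neither Xist, at 51.1 against 7886 to 8553 in the other 3 of its group, nor Y-linked signal, with Eif2s3y at 29.6.

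Of 11777 genes tested, 8 were called at an adjusted p under 0.05 in limma (0.0679%), 7 lower (0.0594%) and 1 higher (0.00849%) in XY Ctnnb1KO. At an unadjusted p under 0.05 there were 473 genes (4.02%), 281 higher (2.39%) and 192 lower (1.63%). Leaving out XY Ctnnb1KO replicate 4 gave 5 calls, and weighting arrays by quality gave 15. The genes that fell were Aldh1a3, a retinaldehyde dehydrogenase that makes retinoic acid, Atp2b3, a calcium pump of the plasma membrane, Pax8, a paired box transcription factor of kidney, thyroid and genital ducts, Lgr5, a receptor for R-spondins and itself a WNT target, Rassf10, a Ras association domain protein, Trank1, a protein with tetratricopeptide and ankyrin repeats, and Sacm1l, a phosphoinositide phosphatase of the endoplasmic reticulum and Golgi. The gene that rose was Stab2, a scavenger receptor of sinusoidal endothelium that binds hyaluronan. All 8 had arrays that did not overlap between the groups, as had 183 of the tested genes lower (1.55%) and 229 higher (1.94%) in XY Ctnnb1KO. In bulk tissue fewer cells of a type and less RNA per cell cannot be told apart.

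Promoters are shown for the called genes with an entry in the RefSeq table (build GRCm38.p6), 4 of the 8, because beta-catenin acts through TCF and LEF proteins, whose binding core is CTTTG. Each sequence runs from 250 bases before to 50 after the annotated start, and capitals mark matches to CTTTG on either strand (CAAAG when read on the strand printed). Aldh1a3, Atp2b3, Rassf10 and Lgr5 are named only.
Pax8, chr2:24475550-24475849, minus strand: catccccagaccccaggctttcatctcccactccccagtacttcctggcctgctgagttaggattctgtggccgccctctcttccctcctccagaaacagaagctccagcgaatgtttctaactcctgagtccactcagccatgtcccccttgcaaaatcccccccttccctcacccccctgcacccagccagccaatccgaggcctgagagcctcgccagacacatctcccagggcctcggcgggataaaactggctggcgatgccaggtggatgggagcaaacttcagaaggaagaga
Trank1, chr9:111311489-111311788, plus strand: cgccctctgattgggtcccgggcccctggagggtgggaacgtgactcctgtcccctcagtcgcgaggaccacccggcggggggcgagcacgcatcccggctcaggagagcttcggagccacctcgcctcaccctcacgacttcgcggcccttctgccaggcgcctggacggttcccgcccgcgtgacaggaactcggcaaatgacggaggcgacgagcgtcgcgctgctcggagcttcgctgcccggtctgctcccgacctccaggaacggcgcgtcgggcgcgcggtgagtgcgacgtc
Sacm1l, chr9:123529503-123529802, plus strand: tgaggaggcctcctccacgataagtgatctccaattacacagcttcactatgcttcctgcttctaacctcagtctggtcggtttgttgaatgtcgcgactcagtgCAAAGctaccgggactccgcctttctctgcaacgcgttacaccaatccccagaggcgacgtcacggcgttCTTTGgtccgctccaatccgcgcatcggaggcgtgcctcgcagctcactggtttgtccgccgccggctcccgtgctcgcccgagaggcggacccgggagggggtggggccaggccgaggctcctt
Stab2, chr10:87007893-87008192, minus strand: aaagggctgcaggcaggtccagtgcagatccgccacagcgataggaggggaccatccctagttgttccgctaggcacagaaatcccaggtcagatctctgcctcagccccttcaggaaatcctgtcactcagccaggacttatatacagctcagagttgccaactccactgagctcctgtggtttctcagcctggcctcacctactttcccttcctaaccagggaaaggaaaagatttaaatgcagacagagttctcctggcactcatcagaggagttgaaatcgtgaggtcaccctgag

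The Sacm1l window held 2 matches, and the windows of Pax8, Trank1 and Stab2 held 0. Of 32851 promoter windows of this length in the table, 53.9% hold CTTTG on either strand. The longer forms CTTTGA and CTTTGT, which overlap CTTTG, are in 16% and 18.7% of windows and in 0 of these 4. A match is a run of letters and not a bound site, and a window without one says nothing of TCF or LEF binding elsewhere.

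Among the called genes, the largest log2 differences were in 3 genes whose knockout signals lay below the array medians. Aldh1a3 read 64.3, 60.8, 62.4 and 47.6 in XY Ctnnb1KO arrays 1 to 4, against 265, 197, 197 and 239 in XY Ctr. Every knockout array was below every control array. The log2 difference was -1.68 ± 0.17 (SE, adjusted p = 7.13e-07). A further Aldh1a3 probe set, too low to be tested, ran from 40.7 to 61.4 in XY Ctnnb1KO and from 83.9 to 115 in XY Ctr, and the third overlapped between the groups.

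Atp2b3 read 10.9, 60.3, 38.2 and 52.0 in XY Ctnnb1KO, against 248, 148, 171 and 190 in XY Ctr. Knockout replicate 1 was the lowest of all, and the groups were well apart. The difference was -1.95 ± 0.26 (adjusted p = 0.000207), and the other Atp2b3 probe set gave -0.54 ± 0.23 without overlap of the arrays, which was not called (adjusted p = 1). Pax8 read 61.4, 23.9, 27.5 and 55.0 in XY Ctnnb1KO, against 193, 147, 132 and 145 in XY Ctr. Here too all knockout arrays were below all controls, by -1.61 ± 0.25 (adjusted p = 0.00202). Differences are of log2(signal + 16), which understates the change of genes as low as these.

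Lgr5, the one called gene that encodes a part of the WNT pathway, was low in both groups. It read 27.5, 30.0, 35.9 and 30.3 in XY Ctnnb1KO, against 51.9, 78.3, 91.2 and 60.6 in XY Ctr. The groups did not overlap, although every value was below its array's median, and the difference was -0.86 ± 0.16 (adjusted p = 0.0101). The other Lgr5 probe set, also low, gave -0.08 ± 0.25. The Lgr5 call was lost in 8 of 20 alternative settings, among them a pseudocount of 64 (-0.49, adjusted p = 0.286), a fit of the 8 arrays alone (adjusted p = 0.487) and the omission of knockout replicate 1 (0.0583) or 4 (0.0532) or control replicate 2 (0.0726) or 3 (0.102), where the values in brackets are adjusted p. It kept its sign in all 20.

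Rassf10 read 225, 236, 223 and 256 in XY Ctnnb1KO against 491, 449, 457 and 400 in XY Ctr. The knockout arrays lay close together and did not overlap the controls, and the difference was -0.89 ± 0.15 (adjusted p = 0.00633). Its weaker probe sets gave -0.30 ± 0.21 and 0.58 ± 0.28 and were not called, and the mean over its probe sets was -0.20 (adjusted p = 1). Trank1 read 529, 497, 464 and 388 in XY Ctnnb1KO, against 1054, 1037, 909 and 832 in XY Ctr. The lowest control was well above the highest knockout array, at -1.01 ± 0.20 (adjusted p = 0.0299). This call was lost without any 1 of the knockout replicates (adjusted p 0.0548 without replicate 1, 0.0628 without 2, 0.105 without 3 and 0.24 without 4) and without control replicate 1 (0.16), 2 (0.147) or 3 (0.0861), as well as with eBayes without a trend (0.0608), with differences from -1.07 to -0.92.

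Sacm1l read 812, 763, 878 and 913 in XY Ctnnb1KO, against 1095, 1182, 1214 and 1194 in XY Ctr. Its log2 difference was the smallest of the 8, at -0.47 ± 0.08 (adjusted p = 0.00457), and the groups did not overlap. With the 8 arrays alone it was not called (adjusted p = 0.0991).

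**Figure D1:**
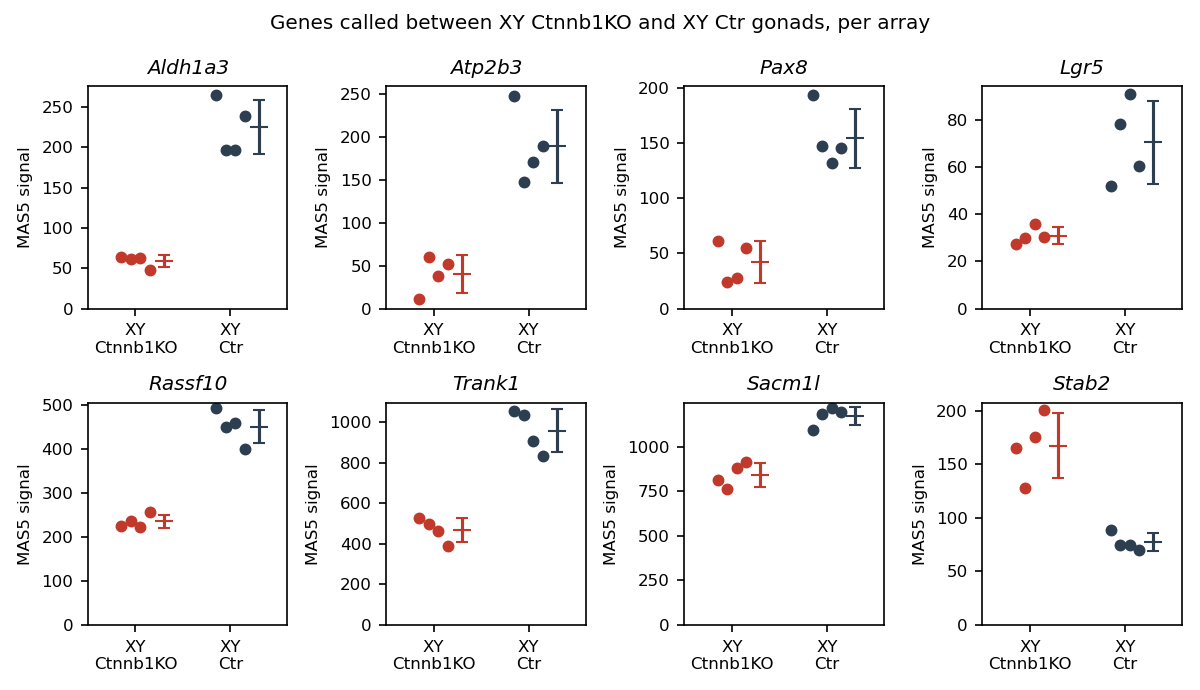
MAS5 signal (vertical axes, linear from 0) of the 8 called genes in each of the 4 XY Ctnnb1KO arrays (red, left) and 4 XY Ctr arrays (dark, right), with the mean and SD beside the points. The knockout points lie below all control points in 7 panels and above them for Stab2, at 128 to 201 in XY Ctnnb1KO and 69.6 to 89.1 in XY Ctr.

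Both Sacm1l and Trank1 lie on mouse chromosome 9, which also carries Ctnnb1. That is 2 of 8 called genes (25%), while chromosome 9 holds 5.72% of the genes tested. When every probe set was tested on its own, 14 of 22006 were called (0.0636%), from 13 genes, and 4 of the 14 (28.57%) were from chromosome 9, which holds 5.53% of the tested probe sets. The added chromosome 9 genes, chosen after their values were seen, were Lztfl1, a regulator of protein traffic in cilia, and Limd1, a LIM domain adaptor protein. In RefSeq order Limd1, Sacm1l and Lztfl1 are the tested genes at positions 24, 25 and 26 after Ctnnb1, side by side. Trank1 lies on the other side of Ctnnb1, at position -42.

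The called Lztfl1 probe set read 60.6, 59.0, 75.8 and 76.5 in XY Ctnnb1KO, against 244, 194, 199 and 319 in XY Ctr (-1.58 ± 0.17, adjusted p over probe sets = 3.81e-06). The called Limd1 probe set read 214, 236, 250 and 249 in XY Ctnnb1KO, against 369, 368, 410 and 375 in XY Ctr (-0.65 ± 0.13, adjusted p = 0.0276). In both the knockout arrays were all below the controls. The strongest probe sets of the same genes were not called. There Lztfl1 gave -0.29 ± 0.13 and Limd1 0.10 ± 0.08, with overlapping arrays and an adjusted p of 1.

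The Sacm1l and called Lztfl1 probe sets separated all 31 arrays by the number of floxed Ctnnb1 alleles, whatever the sex or the Sox9 genotype. Sacm1l ran from 763 to 1033 in the 15 arrays with 2 floxed alleles and from 1095 to 1628 in the 16 with 1. The called Lztfl1 probe set ran from 59.0 to 133 with 2 floxed alleles and from 151 to 319 with 1. The called Limd1 probe set, at 174 to 312 with 2 and 310 to 439 with 1, just overlapped, and Trank1, at 193 to 1083 with 2 and 832 to 2010 with 1, overlapped more widely. Of all 22006 tested probe sets, 11 had no overlap between these allele groups, including Aldh1a3, Pax8, Sacm1l and Lztfl1. The Aldh1a3, Pax8 and Lztfl1 probe sets passed the filter on low values only through arrays with 1 floxed allele. From chromosome 9 came 4 of the 11, with Sacm1l and Lztfl1 lower and Ky and Car12 higher with 2 floxed alleles. Ky and Car12 were not among the 25 tested genes on each side of Ctnnb1. Homozygosity for the floxed allele, with the stretch of chromosome 9 that came with it, and the loss of beta-catenin occur together in this design and cannot be told apart. Among the 25 tested genes on each side, 1 of 50 was called lower (Sacm1l) and 0 higher. Of the 11726 other genes, 6 were called lower and 1 higher. The median difference was 0 in this window and 0.01 over the other genes. The window ended at Sacm1l, which left out Lztfl1, and Limd1 entered by its strongest probe set (0.1). Uncalled genes without overlap were Lars2 (-0.35), Myrip (0.2) and Tmem42 (0.26). Lars2 was called lower in XY DKO (-0.94) and XX DKO (-0.53) but not in XX Ctnnb1KO (-0.3). Myrip was called higher in each of these, and Tmem42 in none.

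**Figure D2:**
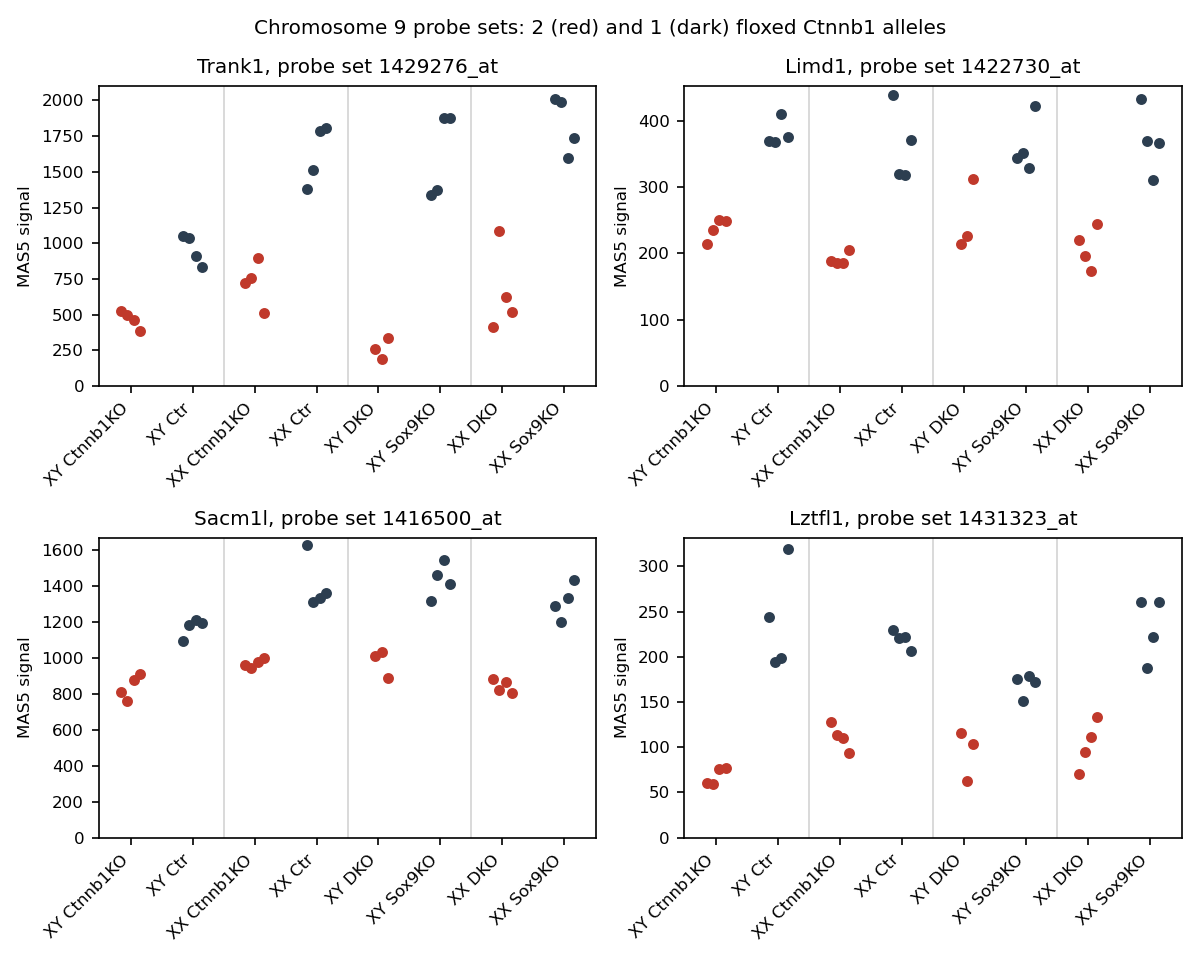
MAS5 signal (vertical axes, linear from 0) of 4 chromosome 9 probe sets in all 31 arrays by group. Each pair of groups has the arrays with 2 floxed Ctnnb1 alleles on the left (red) and those with 1 on the right (dark). Sacm1l and Lztfl1 split without overlap at 1033 and 1095 and at 133 and 151, while Trank1 varies with sex and Sox9 genotype as well.

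The 7 genes that fell in XY gonads also fell in the other gonads without Ctnnb1. All 7 were called lower in XX Ctnnb1KO against XX Ctr, where 5.32% of all genes were called lower, in XY DKO against XY Sox9KO (10.8%) and in XX DKO against XX Sox9KO (6.16%). Aldh1a3 and Pax8, at most 114 and 109 in arrays with 2 floxed Ctnnb1 alleles, lay below the array medians there. They passed the filter on low values only through groups with 1 floxed allele, which are the reference in each comparison. Aldh1a3 differed by -1.17 ± 0.17, -1.28 ± 0.18 and -1.64 ± 0.17 in these 3 comparisons, Pax8 by -1.70 ± 0.25, -2.17 ± 0.27 and -2.01 ± 0.25, and Sacm1l by -0.53 ± 0.08, -0.55 ± 0.09 and -0.63 ± 0.08. Aldh1a3 averaged 58.8 ± 7.62 in XY Ctnnb1KO and 224 ± 33.7 in XY Ctr, and 88.1 ± 19.1 in XX Ctnnb1KO and 220 ± 51.2 in XX Ctr (SD, n = 4 each). Leaving out replicate 4 of XX Ctnnb1KO ended no call of these 7 genes in the XX comparison.

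The log2 differences of Lgr5 and Rassf10 were smaller in XY than in XX gonads, from lower control levels in XY. Lgr5 averaged 30.9 ± 3.56 in XY Ctnnb1KO and 70.5 ± 17.6 in XY Ctr, but 198 ± 32.3 in XX Ctnnb1KO and 954 ± 131 in XX Ctr. The XX difference was -2.18 ± 0.16, and the XY effect minus the XX effect was 1.32 ± 0.22 (adjusted p = 0.000207). Rassf10 averaged 235 ± 15.1 in XY Ctnnb1KO and 449 ± 37.3 in XY Ctr, against 474 ± 125 in XX Ctnnb1KO and 1491 ± 217 in XX Ctr, and its effects differed by 0.76 ± 0.22 (adjusted p = 0.0382), a call that was lost with a pseudocount of 1 (0.75 ± 0.22, adjusted p = 0.0504). Lgr5 passed the filter on low values only through the groups where it is high, and near the bottom of the scale the pseudocount of 16 shrinks its XY difference. With a pseudocount of 1 the Lgr5 effects differed by 1.13 ± 0.25 (adjusted p = 0.0047), and with 64 by 1.46 ± 0.17 (adjusted p = 1.21e-06). Of all genes, 4.19% were called in this difference of effects. The other called genes were not: the difference was -0.51 ± 0.24 for Aldh1a3 (adjusted p = 0.329), -0.90 ± 0.37 for Atp2b3 (0.232), 0.10 ± 0.36 for Pax8 (0.954), 0.05 ± 0.11 for Sacm1l (0.905), 0.16 ± 0.28 for Trank1 (0.891) and 0.63 ± 0.24 for Stab2 (0.194).

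Without Sox9, 3 of these genes had a log2 difference in XY gonads that was called larger, from higher levels in XY Sox9KO than in XY Ctr. Of the 3, Trank1 averaged less in XY DKO (263) than in XY Ctnnb1KO (469), while Lgr5 (112 in XY DKO, 30.9 in XY Ctnnb1KO) and Rassf10 (358 in XY DKO, 235 in XY Ctnnb1KO) averaged more. Lgr5 averaged 112 ± 24.6 in XY DKO (n = 3) and 1002 ± 28.2 in XY Sox9KO (n = 4), a difference of -3.00 ± 0.17. Trank1 averaged 263 ± 71.0 in XY DKO and 1616 ± 300 in XY Sox9KO, a difference of -2.56 ± 0.22. The effect in XY gonads with Sox9 minus that without was 2.14 ± 0.23 for Lgr5 (adjusted p = 1.09e-07), 1.25 ± 0.23 for Rassf10 (0.000251) and 1.56 ± 0.29 for Trank1 (0.000403), where 9.75% of all genes were called. Here too, Lgr5 passed the filter on low values only through the groups where it is high, XY Sox9KO among them. This difference of effects was not called for Aldh1a3, Atp2b3, Pax8, Sacm1l or Stab2. For Stab2 it was 0.75 ± 0.25 (adjusted p = 0.0591). With a pseudocount of 1 the Stab2 difference was called (0.86 ± 0.28, adjusted p = 0.0469), and with 64 it was not (0.54 ± 0.20, adjusted p = 0.0936). Among the 4 groups with 1 floxed Ctnnb1 allele, Lgr5, Rassf10 and Trank1 were lowest in XY Ctr, where Trank1 averaged 958 ± 106. XX Ctr, XX Sox9KO and XY Sox9KO lay between 954 and 1002 for Lgr5, 1491 and 1643 for Rassf10 and 1616 and 1833 for Trank1. XY Ctr was also the lowest of these groups for Atp2b3 (189), Pax8 (154), Sacm1l (1171) and Stab2 (77.1). It was not the lowest for Aldh1a3, at 224 in XY Ctr and 220 in XX Ctr.

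**Figure D3:**
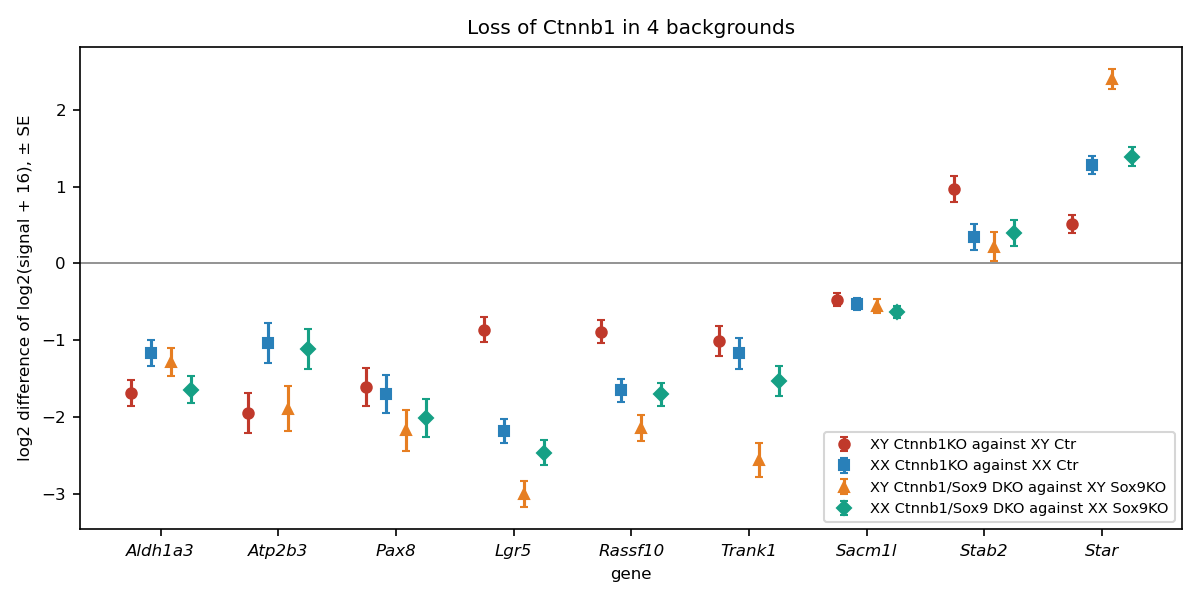
Log2 difference with its SE (vertical axis) of the 8 called genes and Star (horizontal axis) in the 4 comparisons of gonads with and without Ctnnb1. Sacm1l lies between -0.63 and -0.47 throughout, Lgr5, Rassf10 and Trank1 fall most in XY DKO against XY Sox9KO (-3.00, -2.14 and -2.56), and Stab2 is highest in XY Ctnnb1KO against XY Ctr (0.97).

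Stab2 was the only gene called higher. It read 165, 128, 175 and 201 in XY Ctnnb1KO, against 89.1, 74.7, 74.9 and 69.6 in XY Ctr. The lowest knockout array was above the highest control, and the difference was 0.97 ± 0.17 (adjusted p = 0.00895). In the other backgrounds it was 0.34 ± 0.17 (adjusted p = 0.268) in XX Ctnnb1KO, 0.22 ± 0.19 (0.443) in XY DKO and 0.40 ± 0.17 (0.128) in XX DKO, and the means were 155 in XX Ctr and 142 in XY Sox9KO, so XY Ctr at 77.1 ± 8.37 was the lowest of the 8 groups. Stab2 was not called without knockout replicate 4 (0.88, adjusted p = 0.0777) or in a fit of the 8 arrays alone (0.97, adjusted p = 0.0991).

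Of 19 endothelial genes tested, Stab2 was the 1 called, 0 were called lower, and the median was 0.01, the same as over all genes. Pecam1 and Cdh5, adhesion molecules of endothelium, gave 0.06 ± 0.14 and 0.06 ± 0.12, and Stab1, the relative of Stab2, gave 0.00 ± 0.12 (these 3 were chosen after their values were seen). Emcn, the endothelial sialomucin endomucin, was lower without overlap at -0.24 ± 0.08 (adjusted p = 1). Mean log2 level of the list was 8.98 to 9.14 in XY Ctnnb1KO and 8.89 to 9.13 in XY Ctr.

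Blood cell lists had higher levels in knockout replicates 1 and 4. Of 15 macrophage and leukocyte genes tested, 0 were called in either direction, 12 were above 0 and the median was 0.36. Among all 11777 genes tested, 6260 were above 0. Mean log2 level of the list was 9.04, 8.31, 8.30 and 8.81 in XY Ctnnb1KO, against 8.45, 8.13, 8.03 and 8.19 in XY Ctr, so that knockout replicates 1 and 4 stood above the rest and replicates 2 and 3 fell within the control range. Summed signal was 7117 to 14336 in XY Ctnnb1KO and 6132 to 8248 in XY Ctr, and no tested member was at 0. The leukocyte surface gene Cd52 differed by 0.89 ± 0.23 (adjusted p = 0.36). The 9 erythroid genes had a median of 0.59, with 0 called, and their mean log2 level was 10.25, 9.61, 9.08 and 10.25 in XY Ctnnb1KO, against 8.92, 9.35, 9.44 and 9.23 in XY Ctr. Their summed signal was 18136 to 28291 in XY Ctnnb1KO and 14962 to 24208 in XY Ctr. The erythroid factors Gata1 and Klf1 gave 1.03 ± 0.36 and 1.04 ± 0.46. Without knockout replicates 1 and 4 the macrophage median was 0.05, the erythroid median was 0.15 and Stab2 was not called (0.84, adjusted p = 0.577, 2 against 4 arrays). The 3 genes then called were Aldh1a3, Atp2b3 and Pax8. The part of blood cells in the 8 calls was not tested.

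**Figure D4:**
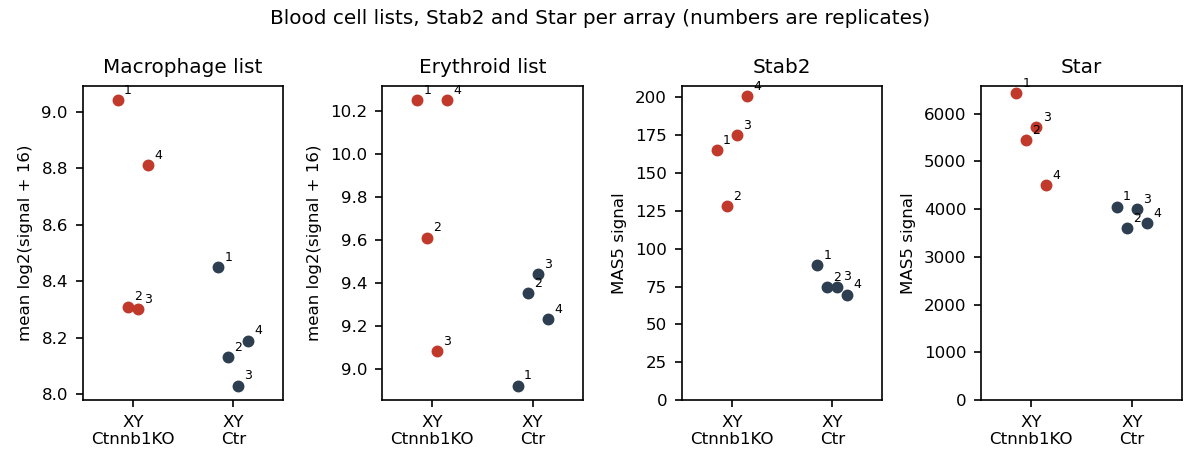
Mean log2(signal + 16) of the macrophage and erythroid lists, and MAS5 signal of Stab2 and Star (linear from 0), in each XY Ctnnb1KO array (red, left) and XY Ctr array (dark, right), with replicate numbers beside the points. Knockout replicates 1 and 4 lie highest in both lists, replicate 4 is highest for Stab2 (201) and lowest of the knockout arrays for Star (4504).

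Star, which carries cholesterol into the mitochondrion for steroid synthesis, was not called by its strongest probe set, which stood for the gene, and rose by its other probe sets. The strongest read 6438, 5447, 5718 and 4504 in XY Ctnnb1KO, against 4053, 3600, 4003 and 3711 in XY Ctr (0.51 ± 0.12, adjusted p = 0.141). The next read 5277, 4375, 5147 and 4477 in XY Ctnnb1KO, against 2975, 3054, 2770 and 3289 in XY Ctr, and the third 3844, 3475, 3427 and 3223 in XY Ctnnb1KO, against 2225, 2239, 2092 and 2201 in XY Ctr. In all 3 the knockout arrays were above all controls, and the last pair each gave 0.67 ± 0.11, with an adjusted p over probe sets of 0.00371 and 0.00668. With the mean of its probe sets per gene, Star was called (0.62, adjusted p = 0.000556). By its strongest probe set Star rose in the other gonads without Ctnnb1, by 1.28 ± 0.12 in XX Ctnnb1KO, 2.40 ± 0.13 in XY DKO and 1.39 ± 0.12 in XX DKO, and the XY effect was below the XX effect by -0.77 ± 0.17 (adjusted p = 0.00414).

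Other steroid genes gave smaller values. Of 9 fetal Leydig and steroid synthesis genes tested, 0 were called, 7 were above 0 and the median was 0.14, or 0.01 without knockout replicate 1 and 0.23 without knockout replicate 3. Among all 11777 genes tested, 6260 were above 0, and 1.94% were higher without overlap. Arrays did not overlap for Star, Scarb1, the lipoprotein receptor that takes up cholesterol (0.23 ± 0.09), and Fdx1, the electron donor of mitochondrial P450 enzymes (0.21 ± 0.11), all higher in XY Ctnnb1KO. Cyp17a1, the enzyme that leads to androgens, was 14778 ± 3977 in XY Ctnnb1KO and 13128 ± 1534 in XY Ctr (0.14 ± 0.25), where knockout replicate 1 alone had 20700. Cyp11a1, which makes pregnenolone, gave 0.08 ± 0.31. Of 5 adrenal cortex type genes 0 were called, and Mrap, an accessory protein of the corticotropin receptor, gave 0.48 ± 0.22 without overlap. Insl3 and Lhcgr are not among the genes analysed here.

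Hpgd, which inactivates prostaglandins, and Itga6, a laminin receptor subunit, were the remaining genes called with every probe set tested, and were chosen after their values were seen. For Hpgd 1 probe set read 493, 651, 575 and 692 in XY Ctnnb1KO, against 397, 372, 317 and 451 in XY Ctr (0.63 ± 0.11, adjusted p = 0.00951), and its other gave 0.36 ± 0.15. For Itga6 1 probe set read 1524, 1629, 1521 and 1447 in XY Ctnnb1KO, against 2068, 2003, 2035 and 2070 in XY Ctr (-0.41 ± 0.08, adjusted p = 0.0329), and its other gave -0.17 ± 0.10. The called probe set of Hpgd was higher and that of Itga6 lower without overlap, and the other probe sets overlapped.

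Lgr5 was the only member called on either WNT list. Of 14 WNT target and feedback genes tested, 1 was called lower (Lgr5) and 0 higher, while 12 were below 0, compared with 46.8% of all genes, and the median was -0.13. Mean log2 level of this list was 8.24 to 8.33 in XY Ctnnb1KO and 8.37 to 8.50 in XY Ctr, and the groups did not overlap. Without Lgr5 the other 13 genes averaged 8.45 to 8.54 in XY Ctnnb1KO and 8.54 to 8.64 in XY Ctr, so that the ranges met at 8.54. Axin2, a feedback inhibitor that WNT signals switch on, read 547, 524, 544 and 535 in XY Ctnnb1KO, against 789, 515, 597 and 634 in XY Ctr. Control replicate 2 overlapped the knockout, and the difference of -0.22 ± 0.12 was not called (adjusted p = 1). Ccnd1, the cell cycle gene for cyclin D1, gave -0.29 ± 0.10, and Lef1, a DNA-binding partner of beta-catenin, gave -0.14 ± 0.18.

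Upstream of beta-catenin, the 42 WNT ligands, receptors and transducers tested had a median of 0.05, with Lgr5 again the 1 called. The ligand Wnt4 gave 0.14 ± 0.11, the R-spondin Rspo1 0.18 ± 0.10 with no overlap, the co-receptor Lrp5 -0.33 ± 0.16 with no overlap, and Pygo1, which binds the BCL9 coactivator, 0.38 ± 0.14. None of these passed the test, with an adjusted p of 1 in each. Among 15 catenin and cadherin genes 0 were called and the median was 0.02. Cdh1 and Cdh2, the E- and N-cadherins that bind beta-catenin, gave 0.14 ± 0.37 and -0.05 ± 0.11, and Ctnna1, the alpha-catenin that beta-catenin joins to cadherins, gave 0.08 ± 0.06.

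Among 16 retinoic acid genes Aldh1a3 was the only one called, and the median was -0.07. The sister enzymes Aldh1a1 and Aldh1a2 gave 0.00 ± 0.07 and 0.18 ± 0.09. Aldh1a1 ran from 7327 to 7822 in XY Ctnnb1KO and from 7241 to 7813 in XY Ctr, with wide overlap. Cyp26b1, which degrades retinoic acid in the fetal testis, read 847, 758, 653 and 656 in XY Ctnnb1KO, against 756, 1115, 976 and 1151 in XY Ctr. The groups overlapped through control replicate 1, and -0.44 ± 0.20 was not called (adjusted p = 1). Stra8, which retinoic acid induces at the entry to meiosis, gave -0.70 ± 0.32 with overlap.

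Pax8 was likewise the 1 of 8 rete and mesonephric genes called, with a median of -0.04 over the list. The epithelial keratin Krt8 gave -0.22 ± 0.16 and the calcium-binding protein Calb1 0.31 ± 0.26, both with overlap. Mean log2 level of the list was 7.72 to 7.98 in XY Ctnnb1KO and 7.97 to 8.11 in XY Ctr. Without Pax8 the other 7 genes averaged 8.05 to 8.24 in XY Ctnnb1KO and 8.06 to 8.24 in XY Ctr.

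Sertoli cell genes gave differences mostly below 0, without a call. Of 19 tested, 0 were called in either direction. Below 0 were 17, compared with 46.8% of all genes, and the median was -0.24, against 0.01 for all genes. Mean log2 level of the list was 10.56, 10.61, 10.52 and 10.52 in XY Ctnnb1KO, against 10.70, 10.85, 10.83 and 10.72 in XY Ctr, with no overlap. Sox8, a relative of Sox9, read 396, 461, 462 and 454 in XY Ctnnb1KO, against 577, 601, 625 and 794 in XY Ctr (-0.53 ± 0.18, adjusted p = 1). Aard, a Sertoli cell gene of the testis, read 4250, 5732, 4861 and 5411 in XY Ctnnb1KO, against 5917, 7573, 6681 and 6578 in XY Ctr (-0.40 ± 0.13, adjusted p = 0.895). Gstm6 and Tesc, chosen after their values were seen, were the others of the 4 genes without overlap, at -0.29 ± 0.11 and -0.36 ± 0.16. Of all genes tested, 1.55% were lower without overlap.

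Sox9 itself read 649, 847, 844 and 648 in XY Ctnnb1KO, against 857, 840, 1025 and 995 in XY Ctr, which overlap (-0.32 ± 0.44, adjusted p = 1). Another Sox9 probe set read 277, 328, 285 and 278 in XY Ctnnb1KO, against 427, 409, 337 and 381 in XY Ctr, with no overlap (-0.39 ± 0.23, adjusted p = 1). Amh, the hormone that removes the Müllerian ducts, was 179 ± 54.0 in XY Ctnnb1KO and 215 ± 13.1 in XY Ctr (-0.28 ± 0.38). Ptgds, the prostaglandin D synthase of Sertoli cells, gave -0.03 ± 0.22.

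Ovary and bipotential gonad genes gave no call beyond Lgr5. Of 16 pregranulosa and ovary genes, 0 were called higher and 1 lower (Lgr5), and the median was -0.06. Fst, the activin antagonist follistatin, read 79.2, 116, 93.5 and 70.5 in XY Ctnnb1KO, against 67.5, 74.3, 54.6 and 69.0 in XY Ctr (0.35 ± 0.13, adjusted p = 1). Knockout replicate 4 lay within the control range. Foxl2, a granulosa cell transcription factor, gave -0.09 ± 0.15, and Kitl, the ligand of the KIT receptor, was lower without overlap at -0.37 ± 0.11 (adjusted p = 0.825). Among 15 genes of the bipotential gonad 0 were called and the median was -0.02.

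The interstitial and germ cell lists held no called gene. The 16 hedgehog and interstitial genes had a median of 0.00, with the receptor and target Ptch1 (-0.11 ± 0.09) and the inhibitor Hhip (-0.34 ± 0.22) lower without overlap, and the 6 peritubular myoid genes a median of -0.01. The median was 0.03 for 17 pan-germ cell genes, -0.07 for 22 meiosis genes and -0.18 for 9 fetal male germ cell genes, the last being -0.03 without knockout replicate 1 and -0.28 without knockout replicate 3. Germ cell levels varied among the knockout arrays. Mean log2 level of the pan-germ list was 9.33, 9.72, 10.08 and 9.90 in XY Ctnnb1KO, against 9.60, 9.80, 9.91 and 9.64 in XY Ctr, with knockout replicate 1, the array with the highest macrophage level, the lowest of all 8. The 13 proliferation genes had a median of 0.04. Of 9 immediate early and heat shock genes, Fos (0.85 ± 0.25, adjusted p = 0.825) and Egr1 (0.32 ± 0.12, adjusted p = 1), transcription factor genes that respond quickly to outside signals, were higher without overlap.

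**Figure D5:**
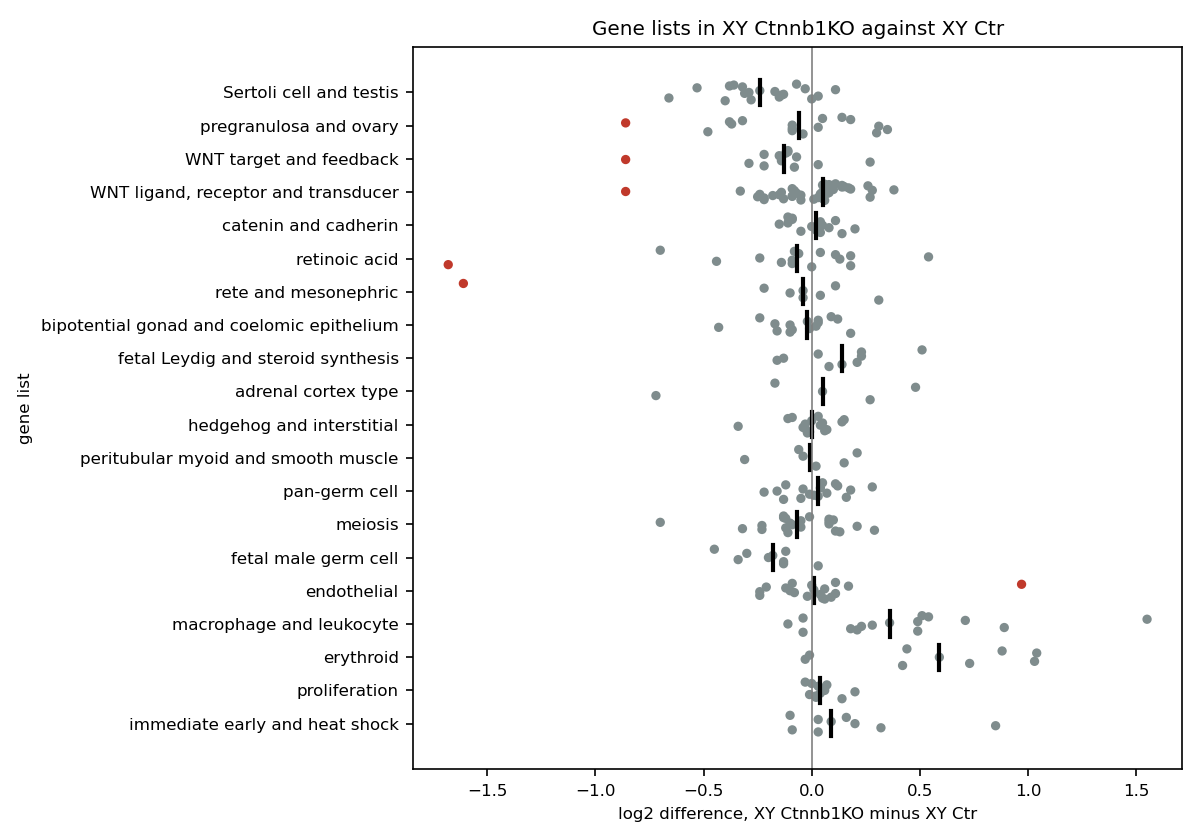
Log2 difference of XY Ctnnb1KO minus XY Ctr (horizontal axis) for each tested member of the 20 gene lists (rows), with the list's median as a black bar and called genes in red. Only Lgr5, Aldh1a3, Pax8 and Stab2 are red. The Sertoli cell median lies at -0.24, and the macrophage and erythroid medians at 0.36 and 0.59.

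The 10 genes next in order of p were not called. Bex2, a small X-linked signalling adaptor, read 1597, 1924, 1582 and 1600 in XY Ctnnb1KO, against 2198, 2734, 2256 and 2045 in XY Ctr (-0.45 ± 0.10, adjusted p = 0.0645), and Podxl, the sialomucin podocalyxin, gave -0.35 ± 0.07 (0.0645). Gm2a, the activator of ganglioside breakdown, gave -0.38 ± 0.09 (0.13), Cpeb3, which controls translation through messenger RNA tails, 0.46 ± 0.10 (0.13), and Ptger4, a prostaglandin E receptor, 0.63 ± 0.14 (0.13). Arrays of these 5 genes did not overlap in the probe sets that stood for them. Another Cpeb3 probe set read 266, 240, 186 and 208 in XY Ctnnb1KO, against 257, 240, 253 and 340 in XY Ctr, with overlap. Myl1, a muscle myosin light chain, gave 1.16 ± 0.27 (0.141), Stum -0.92 ± 0.24 (0.38) and Acin1, a splicing-associated protein, -0.33 ± 0.09 (0.414), all with overlap, and Star and Cd52 complete the 10. Bex2, Podxl, Gm2a and Stum were called lower and Star, Myl1 and Cd52 higher in each of the 3 other comparisons, where 4.81%, 11.1% and 7.36% of all genes were called higher, and Bex2 gave -0.72, -0.64 and -0.83 and Myl1 2.78, 2.69 and 3.23 (in the order XX Ctnnb1KO, XY DKO, XX DKO). Cpeb3 and Acin1 were called in none of them, and Ptger4 in XY DKO alone, at 0.84 ± 0.16 (adjusted p = 0.000167).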

How the data were processed

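The authors deposited 1 linear intensity (MAS5 signal) per probe set and array. MAS5 is credited to the submitters' processing notes, and its version and settings were not given in the sources used here. Per the labels' protocols, 40 ng of total RNA of 1 pair of gonads was amplified and labelled with biotin. Of 45101 probe sets, 64 controls were left out and 34945 have 1 gene symbol in the platform annotation, which gave 18193 genes. Each gene was represented by the probe set with the highest mean of log2(signal + 16) over 31 arrays, and 11777 genes above their own array's median on at least 3 arrays were tested. All arrays entered 1 fit of 8 group means in limma 3.58.1 (R 4.3.3; lmFit, contrasts, eBayes with trend = TRUE; residual df of 23), two-sided, with Benjamini-Hochberg adjusted p-values over all genes of a comparison. SE is from limma and SD is between arrays. Arrays have no read depth, so their number limits the precision. Before use, this model was tested on simulated data.

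Groups came from sample titles. Named genes were Ctnnb1, Sox9, Jup and sex-linked checks, every called gene, the next 10 by p, and of each gene list the 3 members with the smallest p and fixed defining members. The members compared and the gene lists were chosen with earlier results of these data known. As alternatives the signals were quantile normalized, the pseudocount was set to 1 or 64, or the filter was dropped. Others were the 8 arrays alone, other probe set rules, other eBayes options, array weights, a replicate block and leaving out arrays. Promoters are from RefSeq, GRCm38.p6, and gene order is from its gene table.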

Additional observations from a re-analysis of the deposited data

Results flagged for a closer look

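Single arrays stood apart from the other 3 of their group in 15 of 180 groups of 4 arrays checked. The gap from the highest or lowest array to the nearest other, divided by the group's range, both on the log2 scale, was set against Dixon's critical value. By its construction this value flags about 1 in 20 groups by chance. The signals given below are linear. Of the 15 flagged groups, 6 were flagged for XY Ctnnb1KO replicate 1, with Cyp11a1 at 10363 (others 7484 to 7907), Cyp17a1 at 20700 (12134 to 13244), Fdx1 at 11839 (9707 to 9990), Lef1 at 776 (944 to 965), Sox8 at 396 (454 to 462) and Mcm2 at 1480 (1830 to 1880). XY Ctnnb1KO replicate 2 had Bex2 at 1924 (1582 to 1600), Podxl at 2050 (1776 to 1807) and Stum at 14.6 (2.93 to 3.71). XY Ctnnb1KO replicate 4 had Calb1 at 2.3 (14.6 to 17.6) and Rrm2 at 5721 (5067 to 5150). Among controls, XY Ctr replicate 2 had Xist at 61.2 (81.8 to 83.2), Stum at 5.76 (32.5 to 37.4) and Tdrd9, a germ cell gene of the piRNA pathway, at 146 (495 to 630), and XY Ctr replicate 1 had Laptm5 at 2122 (1474 to 1558). Without that control replicate 2, Stum was called (-1.22, adjusted p = 0.0082).

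The effect of Ctnnb1 loss differed between XY and XX gonads, by the limma test of the difference, for Lgr5 (1.32 ± 0.22, adjusted p = 0.000207), Rassf10 (0.76 ± 0.22, 0.0382), Cpeb3 (0.50 ± 0.15, 0.043), Gm2a (0.42 ± 0.12, 0.0456), Star (-0.77 ± 0.17, 0.00414) and Myl1 (-1.63 ± 0.38, 0.00803). Without XX Ctnnb1KO replicate 4 the difference of Gm2a was not called (0.40, adjusted p = 0.0919) and the other 5 calls stood. Between XY gonads with and without Sox9 it differed for Lgr5 (2.14 ± 0.23, 1.09e-07), Rassf10 (1.25 ± 0.23, 0.000251), Trank1 (1.56 ± 0.29, 0.000403), Podxl (0.42 ± 0.11, 0.0109), Cpeb3 (0.64 ± 0.15, 0.00463), Gm2a (0.50 ± 0.13, 0.0102), Star (-1.89 ± 0.18, 5.05e-09), Myl1 (-1.53 ± 0.40, 0.0104) and Stum (1.66 ± 0.35, 0.00147). These differences are of log2(signal + 16), and the genes differ in their control levels between the backgrounds. Each gene is given by 1 probe set, and another Cpeb3 probe set overlapped between XY Ctnnb1KO and XY Ctr. Lgr5 passed the filter on low values only through the groups where it is high, and such groups enter both of its tests.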

How the results depend on the processing

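Against 8 calls in XY Ctnnb1KO against XY Ctr, array quality weights gave 15, all probe sets tested singly gave 14, and both included the 8 genes. Leaving out 1 array at a time gave 5 to 10 calls, with 5 without XY Ctnnb1KO replicate 4, and leaving out XY Ctnnb1KO replicates 1 and 4 together, chosen after seeing the data, gave 3. The cause of these changes was not tested, and leaving out arrays also lowers their number. Atp2b3 was called in all 20 gene settings, and Aldh1a3 and Pax8 in 19. With the mean of all probe sets of a gene, where 10848 genes were tested and 6 called, these 2 were below the filter and not tested. Without replicates 1 and 4 the lost genes kept their sign, at -0.51 for Sacm1l (adjusted p = 0.0513) and -0.92 for Rassf10 (0.109). Of the list medians, that of the retinoic acid genes was 0 with no filter, that of the erythroid genes ran from 0.38 to 0.90 with 1 array left out and was 0.15 without replicates 1 and 4, and that of the macrophage genes ran from 0.26 to 0.48 and was 0.05. The fetal Leydig median ran from 0.01 to 0.23 and was 0.05. No pairing by replicate number was visible. Correlations of same-numbered arrays ran from -0.10 to 0.13, and 2 of 4 knockout arrays correlated best with their own number. With 4 arrays in each group this check cannot exclude pairing. With the replicate block 9 genes were called, adding Bex2 (-0.45, adjusted p = 0.0267), and no other call among the named genes changed. No result of a called gene changed direction. Low signal limits Aldh1a3, Atp2b3, Pax8 and Lgr5, which lay below the array medians in XY Ctnnb1KO. It also limits Stab2, which lay below the array medians in XY Ctr (69.6 to 89.1) and in XY Ctnnb1KO replicate 2 (128).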

Other observations

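Some genes outside the 8 calls followed the number of floxed Ctnnb1 alleles across all 31 arrays. Ky, a muscle gene on chromosome 9, ran from 104 to 543 in the 15 arrays with 2 floxed alleles and from 6.70 to 67.7 in the 16 with 1, and its log2 difference was 0.80 in XY Ctnnb1KO against XY Ctr but 3.09, 3.47 and 3.32 in XX Ctnnb1KO, XY DKO and XX DKO against their controls. Car12, a carbonic anhydrase gene on chromosome 9, ran from 93.7 to 411 with 2 and from 33.2 to 87.8 with 1. Plac1 on chromosome X ran from 154 to 313 with 2 and from 78.5 to 140 with 1, Gpr182 on chromosome 10 from 182 to 336 with 2 and from 85.5 to 175 with 1, and Scarb2 on chromosome 5 from 2145 to 2729 with 2 and from 814 to 2097 with 1. Lower with 2 alleles were Rnd2 on chromosome 11, at 841 to 1591 with 2 and 1665 to 2398 with 1, and Il6st, a cytokine receptor subunit on chromosome 13, at 936 to 1483 with 2 and 1514 to 2288 with 1. These genes were chosen after their values were seen, and all 7 lay outside the calls of XY Ctnnb1KO against XY Ctr.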
